A study of Mus musculus with 5 samples.

Results

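Prtn3, Elane, Mpo and Ctsg are 4 of the 31053 genes counted in single mouse liver cells, and they encode enzymes stored in the azurophil granules of neutrophils. They were followed in 2 kinds of barcode, hepatocytes and neutrophils, and in droplets without a cell, with the question of whether hepatocytes held these transcripts beyond the free RNA of the cell suspension. Prtn3 was chosen by its UMI counts in these same libraries, which were higher in hepatocytes after surgery. The other 3 were taken because they are made beside it in granulocyte precursors. Differences of Prtn3 between libraries are therefore a description, with no test.

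Liver cells of C57BL/6J mice were released by perfusion, cleared of dead cells and counted with a 10x v3 kit, which marks each captured transcript with a unique molecular identifier (UMI). There were 5 libraries, 1 per group: liver at postnatal day 14 (P14), an adult control, and adult liver collected 24 h, 48 h or 96 h after surgery that took out most of the organ (partial hepatectomy, PHx). The adults were 8 weeks old. The labels contradict each other on the adult control, which the treatment protocol counts among the operated animals while its title and source call it a control. It was used as the control. A code in the sample descriptions also ends in L002 for the control and in L001 for the other 4 libraries, so what this code marks cannot be told apart from the control. The labels give neither the number of animals nor their sex, and with 1 library per group a difference between groups and a difference between animals or libraries cannot be told apart.

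Proteinase 3 (Prtn3), neutrophil elastase (Elane) and cathepsin G (Ctsg) are serine proteases, and myeloperoxidase (Mpo) makes hypochlorous acid. Their genes are transcribed in the bone marrow at the promyelocyte stage, the proteins are packed into granules, and circulating neutrophils carry the proteins but little of the mRNA. Hepatocytes are not a known main source of any of them, whereas they are the main source of the plasma inhibitors that bind these proteases.

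A hepatocyte was a barcode with at least 5000 UMIs, 10 to 30% of them from the 13 mitochondrial genes, and at least 1% from Alb, Apoa1 and Ttr together. This gave 5691 hepatocytes: 2106 at P14, 925 in the control, 1170 at 24 h, 719 at 48 h and 771 in the 96 h library, with median depths from 18527 to 38922.5 UMIs. A neutrophil was a barcode with at least 1000 UMIs, 500 genes and 20 UMIs of S100a8 and S100a9, and at least 2 of 6 further neutrophil genes. This gave 525 neutrophils (58, 49, 168, 170 and 80 in the same order), with median depths from 3336 to 9229.5 UMIs. The 8 hepatocyte markers summed to between 61474 and 224840 CPM in the hepatocytes of a library and to between 3212 and 45054 CPM in its neutrophils, where none was at 0. The 8 neutrophil markers are the genes of the neutrophil rule, so their presence in neutrophils is no check. Of the barcode sequences, 3 of hepatocytes and 0 of neutrophils occurred in more than 1 library, and 3, 0, 2, 1 and 1 barcodes passed both rules. No doublet caller was run. Levels are given as CPM, UMIs per 1000000 of all genes but the mitochondrial ones, from counts summed over cells.

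Prtn3 and Elane are neighbours, and the sequence before each start is shown because the pair had unlike shares in hepatocytes and in barcodes rich in granule transcripts. Prtn3 lies at chr10:79874476-79883174 on the plus strand of GRCm38, with 6 annotated transcripts and 5 exons in the coding one, and Elane at chr10:79886247-79888215, 3.073 kb downstream on the same strand. Mpo lies at chr11:87793581-87804413 on the plus strand and Ctsg at chr14:56099881-56102574 on the minus strand. The stretches below are RefSeq promoter sequence (GRCm38.p6), 5′ to 3′ on the gene's strand and ending before the first exon of the coding transcript or cut around the match, and the capitals mark the letters AGGAAGT, the core that ETS factors such as PU.1 (Spi1) bind.
Prtn3 chr10:79879417-79879613 (+): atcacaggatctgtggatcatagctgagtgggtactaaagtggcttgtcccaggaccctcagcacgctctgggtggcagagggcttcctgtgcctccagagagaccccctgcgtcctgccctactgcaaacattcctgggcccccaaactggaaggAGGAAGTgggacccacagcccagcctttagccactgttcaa
Elane chr10:79886062-79886246 (+): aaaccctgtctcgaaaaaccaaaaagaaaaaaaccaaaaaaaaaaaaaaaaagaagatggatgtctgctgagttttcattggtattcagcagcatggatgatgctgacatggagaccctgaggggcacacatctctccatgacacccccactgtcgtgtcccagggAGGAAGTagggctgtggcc
Mpo chr11:87793537-87793580 (+): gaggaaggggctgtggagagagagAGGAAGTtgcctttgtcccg
Ctsg chr14:56102750-56102804 (-): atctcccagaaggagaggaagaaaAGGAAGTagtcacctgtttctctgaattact
AGGAAGT, searched on both strands in the 300 bases around the RefSeq start, occurred in all 4 members and in 9.35% of 32851 promoters of the same length. It was chosen after the 4 sequences had been read, so the 4 matches are a description. The C/EBP letters TTGCNNAA were in none of the 4 windows (10.8% of all promoters), and the STAT spacing TTCNNNGAA was in Ctsg alone among them (8.30% of all). A match is not a bound site, and a window without these letters says nothing of a factor's action.

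In hepatocytes Prtn3 had more UMIs than the other 3 members in each library, and Elane, Mpo and Ctsg were at 27 UMIs or fewer per library. The summed hepatocytes held 216 Prtn3 UMIs at P14, 50 in the control, 906 at 24 h, 4587 at 48 h and 447 in the 96 h library. As a share of all UMIs that was 3.34 CPM at P14 and 3.75 CPM in the control. After surgery it was 46.4 CPM (95% exact Poisson interval 43.5 to 49.5) at 24 h, 220.2 CPM (213.9 to 226.6) at 48 h and 33.3 CPM (30.2 to 36.5) at 96 h. The order was thus 48 h, 24 h, 96 h, and then the control and P14, which did not differ beyond their counting error. Of the 216 UMIs at P14, 199 remained without the barcodes that also passed the neutrophil rule. Intervals and floors here cover counting error only, not the spread between animals.

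Against the control, Prtn3 was 12.4-fold higher at 24 h (9.30 to 16.8), 58.6-fold at 48 h (44.4 to 79.1) and 8.86-fold at 96 h (6.60 to 12.1). At P14 its level was 0.891 times that of the control, with an interval of 0.652 to 1.24. The 48 h library was also 4.74-fold above the 24 h library (4.42 to 5.10) and 6.62-fold above the 96 h library (6.01 to 7.31). On the log2(CPM + 1) scale the differences from the control were 3.32, 5.54 and 2.85 at 24 h, 48 h and 96 h, and -0.13 at P14. Prtn3 ranked 61 of 9028 genes at 24 h, 5 of 9035 at 48 h and 24 of 8890 at 96 h, among the genes that reached 5 CPM in the control or in that library.

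Only Prtn3 among the 4 members reached 5 CPM, and it was at least 4-fold higher (2 on the log2 scale) in the 3 libraries after surgery, where 2.77%, 2.96% and 0.945% of all genes were so at 24 h, 48 h and 96 h. At P14 none of the 4 reached 5 CPM, and 3.07% of genes were 4-fold higher there. With a pseudocount of 10 CPM in place of 1 the 96 h difference was 1.65, under the 4-fold limit. With hepatocytes limited to 5% or more of Alb, Apoa1 and Ttr, the 24 h difference was 2.29.

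Elane, the protease gene 3.073 kb from Prtn3, had 27 hepatocyte UMIs at P14, 0 in the control, 11 at 24 h, 19 at 48 h and 4 in the 96 h library. At P14 it had 23 without barcodes that also passed the neutrophil rule or were granule-rich (at least 3 of the 4 members and 10 member UMIs). Its highest level was 0.912 CPM at 48 h (0.549 to 1.42), against 0 in the control, where the exact upper limit is 0.277 CPM. The interval and that limit do not overlap. Mpo, the peroxidase gene, had 23, 1, 1, 3 and 3 UMIs in the same order of libraries. Ctsg, the cathepsin gene, had 13, 0, 4, 1 and 2. Of these 3 genes, none passed 1 CPM in the hepatocytes of any library. At least 2 of the 4 members were found together in 8 hepatocytes at P14, 0 in the control, 12 at 24 h, 23 at 48 h and 4 in the 96 h library. These counts do not show joint expression. With a Prtn3 UMI in 94.4% of hepatocytes at 48 h and 45.0% at 24 h, cells with another member often hold Prtn3 without any link.

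**Figure D1:**
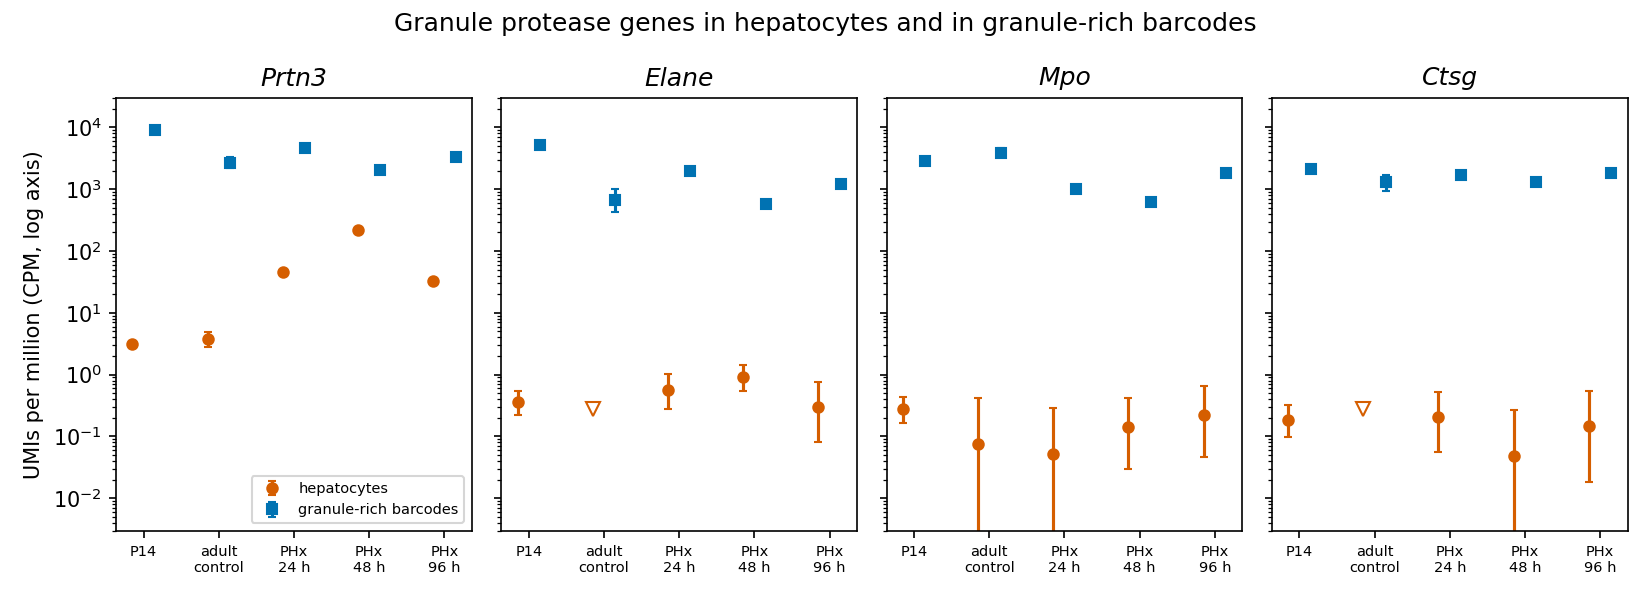
Level of each member (CPM, log axis) in hepatocytes and in granule-rich barcodes (at least 3 members and 10 member UMIs), by library; bars are 95% exact Poisson intervals of summed counts, and open triangles mark the upper limit where the count was 0. Prtn3 in hepatocytes goes from 3.75 CPM in the control to 220.3 CPM at 48 h, without barcodes that are granule-rich or pass the neutrophil rule, while the other 3 members stay under 1 CPM.

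Prtn3 was spread over the hepatocytes of the 48 h library and not held by a few of them. There, 679 of 719 hepatocytes had a Prtn3 UMI (94.4%, exact binomial interval 92.5 to 96.0), the median hepatocyte had 5 and the highest 33. The share was 8.36% at P14, 4.97% in the control, 45.0% at 24 h and 37.1% at 96 h. If all hepatocytes of a library had Prtn3 at 1 common share of their UMIs, 96.9% would have had a UMI at 48 h, 50.1% at 24 h and 42.2% at 96 h. The 72 hepatocytes with most Prtn3 at 48 h held 31.1% of its UMIs. In the 48 h library 366 hepatocytes had 5 or more Prtn3 UMIs, against 23 at 24 h, 5 at 96 h, 1 at P14 and 0 in the control.

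The order of the shares was the same at equal depth. Thinned to 5000 UMIs per cell, with no hepatocyte left out, 53.5% of hepatocytes had a Prtn3 UMI at 48 h, 15.6% at 24 h, 10.5% at 96 h, 1.42% at P14 and 1.08% in the control. Within the 48 h library the level was 169 CPM in the shallowest tercile of hepatocytes, 199 CPM in the middle and 247 CPM in the deepest. Elane, at the same depth of 5000 UMIs, was seen in 0.278% of the 48 h hepatocytes and in 0 of the 925 control hepatocytes, which allows a share of up to 0.324% by the floor of 3 counts and 0.398% by the exact interval.

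**Figure D2:**
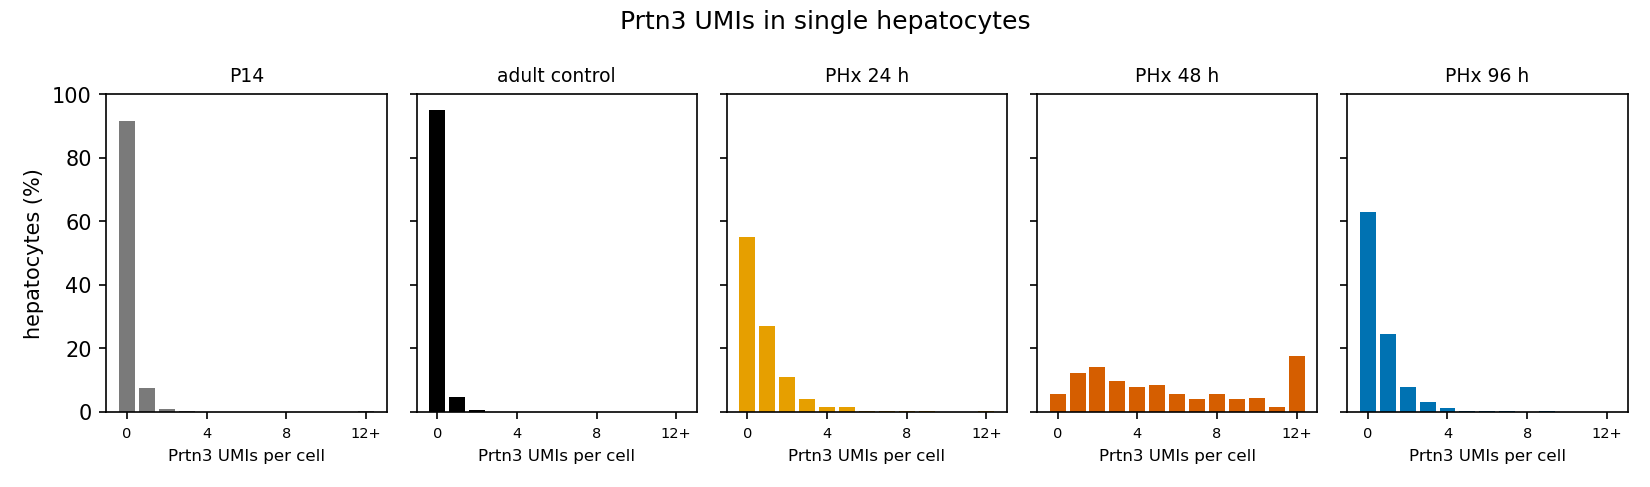
Share of hepatocytes (percent) by number of Prtn3 UMIs per cell, in each of the 5 libraries; the last bar gathers 12 or more. The 48 h distribution has a median of 5 UMIs, whereas the most frequent number in the other 4 libraries is 0.

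Free RNA, which enters droplets from broken cells, was read from the barcodes that follow the 20000 deepest, down to rank 60000 by UMIs, in each library, taken as droplets without a cell. Their median depth was 460 UMIs at P14, 1330 in the control, 665 at 24 h, 287 at 48 h and 775 in the 96 h library. They held 3.875 Prtn3 UMIs per 1000 droplets at P14, 7.75 in the control, 61.4 at 24 h, 94.3 at 48 h and 51.5 in the 96 h library, so Prtn3 in free RNA had the same order of libraries after surgery as in hepatocytes. At 48 h the hepatocytes held 4587 Prtn3 UMIs where 67.8 would have come from 1 droplet's free RNA each, a ratio of 67.7 (64.8 to 70.7). The ratio was 12.6 at 24 h, 11.3 at 96 h, 26.5 at P14 and 6.97 in the control.

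Hepatocyte barcodes also held more S100a8 and S100a9, the most abundant neutrophil transcripts, than a droplet without a cell, so a second expectation was scaled by these. S100a8 and S100a9 came to 0.791 UMIs per hepatocyte at P14, 0.135 in the control, 1.502 at 24 h, 4.91 at 48 h and 0.344 in the 96 h library. Scaled so, Prtn3 was above the expectation by 5.52-fold at 48 h, 3.48-fold at 24 h, 2.02-fold at P14 and 1.45-fold at 96 h, and was at 1.08 times it in the control. The excess was not particular to Prtn3. Elane, on few UMIs, was at 7.18 times its scaled expectation at 48 h, 3.05 at 24 h, 1.91 at 96 h and 0.890 at P14. Unscaled, its 48 h ratio was 88.1 (40.6 to 199). Mpo and Ctsg, at 4 UMIs or fewer after surgery, lay between 0.267 and 2.52 times the scaled expectation there. All 8 neutrophil markers had UMIs in hepatocytes in 4 libraries and 7 of 8 in the control, where Stfa2l1 was at 0. Their summed level was 31.4 CPM at P14, 11.6 in the control, 106 at 24 h, 197 at 48 h and 21.9 in the 96 h library. The Prtn3 result at 48 h was nearly as large without the 341 hepatocytes that held 5 or more S100a8 and S100a9 UMIs: log2 5.92 over free RNA, against 6.08 with them. Without the 327 hepatocytes that held 3 markers of another cell class it was 5.97.

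Per UMI the comparison went the other way. Prtn3 made up a larger share of free RNA than of hepatocyte RNA in all 5 libraries: 8.55 CPM against 3.34 at P14, 5.86 against 3.75 in the control, and after surgery 92.5 and 46.4 at 24 h, 333 and 220.2 at 48 h, 66.5 and 33.3 at 96 h. None of the 4 members was 4-fold higher per UMI in hepatocytes than in free RNA, and few genes were: 0.105% at P14, 0.104% in the control, 0.249% at 24 h, 0.122% at 48 h and 0.578% in the 96 h library. Scaled by Alb, which hepatocytes make themselves, the ratio to free RNA was below 1 as well, at log2 -2.18 at 48 h and from -2.47 to -1.10 over the 5 libraries. The droplets without a cell held 1.26 to 7.95% Alb, Apoa1 and Ttr UMIs and 0.433 to 2.78% mitochondrial UMIs. Barcodes with hepatocyte RNA but under 5% mitochondrial UMIs held 371 CPM of Prtn3 at 48 h (852 barcodes, median depth 1685 UMIs), and those over 30% held 145 CPM (363 barcodes).

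T and NK cells, which are not known for making Prtn3, take up free RNA as well and were measured beside hepatocytes. Among T or NK cells at 48 h, 12.97% had a Prtn3 UMI (52 of 401, median depth 5682 UMIs), against 94.4% of hepatocytes (median depth 35432). Thinned to 5000 UMIs, 9.73% of the 257 deep enough T or NK cells had one (6.39 to 14.0), against 53.5% of hepatocytes (49.8 to 57.2). At 24 h the thinned shares were 4.41% of 68 T or NK cells and 15.6% of hepatocytes, and at 96 h they were 4.07% of 123 and 10.5%. In the control they were 0.456% of 439 T or NK cells and 1.08% of hepatocytes (0.520 to 1.98), a difference within counting error.

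T or NK cells held 0.00859 Prtn3 UMIs each in the control, against 0.150 at 48 h, 0.0606 at 24 h and 0.0833 at 96 h. That is 1.07, 1.10, 0.849 and 1.24 times what their Alb UMIs, which they do not make, predict from the free-RNA ratio of Prtn3 to Alb. Their S100a8 and S100a9 at 48 h equalled 1.00 times that of a droplet without a cell, whereas the hepatocytes' stood at 12.1 times, both without granule-rich barcodes. Both are UMIs per barcode, not set to equal depth: the medians were 5682 UMIs in T or NK cells and 35427.5 in hepatocytes. B, endothelial, erythroid and plasmacytoid dendritic cells at 48 h held between 0.108 and 0.227 Prtn3 UMIs each, and hepatocytes 6.38, again at unlike depth. The small monocyte or macrophage class held 1.58 per cell at 24 h (12 cells, median depth 9394 UMIs) and 0.647 at 96 h (17 cells, 9021 UMIs), against 0.774 and 0.581 in the deeper hepatocytes there. Thinned to 5000 UMIs, 41.7% of 12 such cells at 96 h had a Prtn3 UMI (15.2 to 72.3), against 10.5% of hepatocytes.

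**Figure D3:**
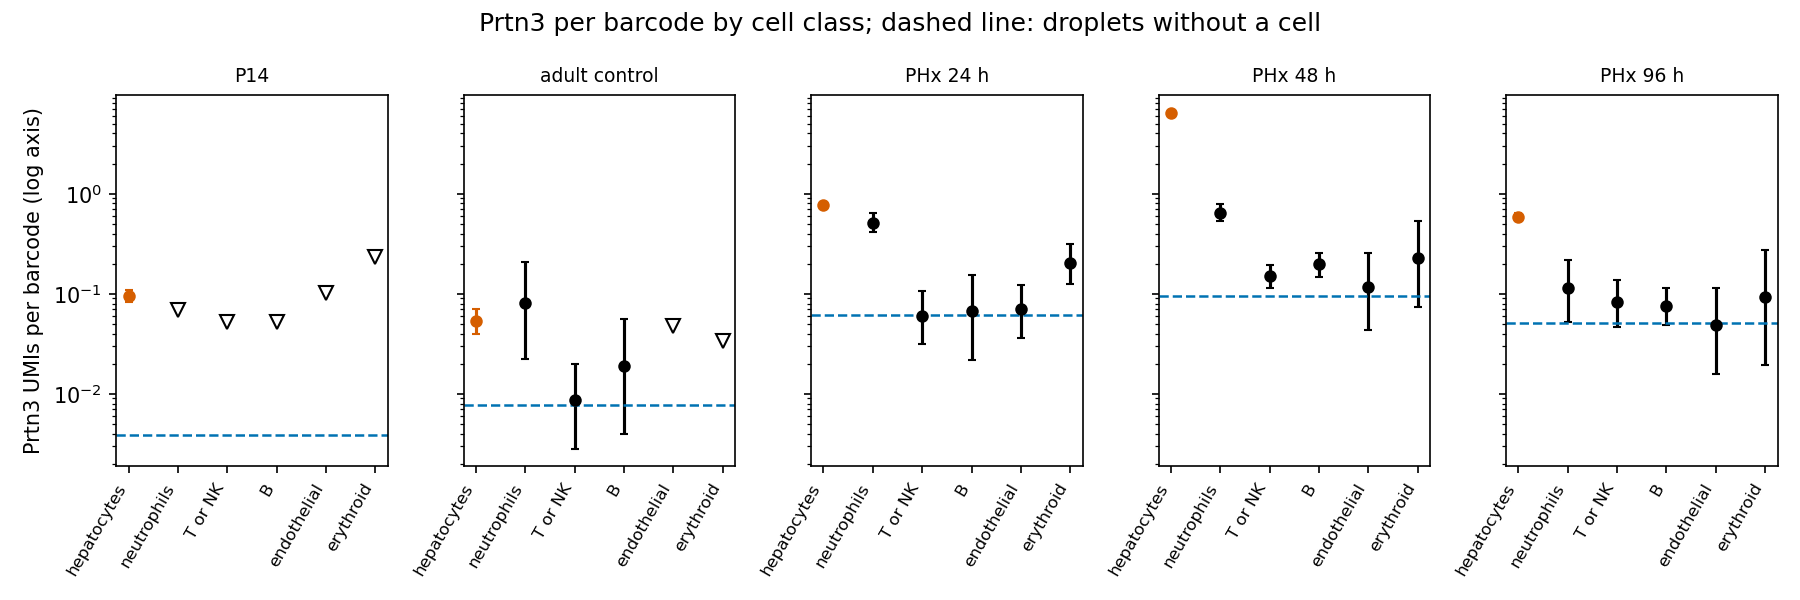
Prtn3 UMIs per barcode (log axis) by cell class in each library, without granule-rich barcodes; bars are 95% exact Poisson intervals, open triangles the upper limit at a count of 0, and the dashed line the level in droplets without a cell. At 48 h hepatocytes lie at 6.38 and T or NK cells at 0.150 (0.114 to 0.193), both above the dashed line at 94.3 per 1000 droplets.

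Most Elane, Mpo and Ctsg in the libraries lay in 39 granule-rich barcodes, defined after the values were seen as those with at least 3 of the 4 members and at least 10 member UMIs: 11 at P14, 1 in the control, 7 at 24 h, 11 at 48 h and 9 in the 96 h library. Over the 5 libraries they held 88.9% of all Elane UMIs, 88.1% of Mpo and 86.6% of Ctsg, but 17.99% of Prtn3. At 48 h they held 69.2% of Elane and 4.40% of Prtn3, while hepatocytes held 24.9% of Prtn3 and barcodes under 1000 UMIs 43.6%. At P14 they held 84.7% of Prtn3 and hepatocytes 4.61%. Prtn3 thus lay mostly with the other members at P14 and mostly elsewhere in the other 4 libraries, where granule-rich barcodes held 4.40 to 18.4% of it.

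The granule-rich barcodes were deep, with 13448 to 83203 UMIs and a median of 39685, and 38 of 39 had at least 3 of 10 genes of granulocyte precursors. That count alone does not mark a precursor. No such count was made in other deep barcodes, and 1 of the 10 genes, Igfbp4, was at 776 to 1560 CPM in free RNA. Among these genes are Ms4a3 (450 CPM in the granule-rich barcodes, 76.6 CPM in neutrophils), a marker of committed granulocyte and monocyte precursors, Fcnb (121 and 65.9 CPM), a ficolin of immature neutrophils, Clec12a (237 and 143 CPM), a myeloid lectin receptor, and Cebpe (97.7 and 118 CPM), a factor of granulocyte maturation. The sets overlap, since 7 granule-rich barcodes are neutrophils, and 326 of the 339 Ms4a3 UMIs of neutrophils lay in the 12 with at least 2 members. At least 3 hepatocyte markers were found in all 39, and at least 3 of 22 mitosis genes in 34. The control's only such barcode held 6 plasmacytoid dendritic cell markers. A P14 barcode with 0 precursor genes held 6 mast cell or basophil markers. At least 3 monocyte or macrophage markers were found in 26 granule-rich barcodes, and at least 3 neutrophil markers in 15. The same held for endothelial markers in 6, plasmacytoid dendritic cell markers in 2 and mast cell or basophil markers in 1. At least 3 T or NK or B cell markers were found in 0 granule-rich barcodes. All 12 late granule and mature-neutrophil genes were lower there than in neutrophils, from 0 to 180 CPM, the highest being Selplg, a selectin ligand (542 CPM in neutrophils). Retnlg, a resistin-like secreted protein, was at 5.43 CPM against 17098.5 CPM in neutrophils, and Mmp9, the gelatinase of late granules, was at 0 against 1181 CPM. The 10 genes of the specific granules were also lower there than in neutrophils. The highest were Camp, the cathelicidin, at 4900 CPM (8267 in neutrophils), Ngp at 1825 CPM (8556) and Chil3 at 812 CPM (1419). Lcn2 was at 710 CPM (9181), Ltf at 84.1 CPM (1953) and Mmp8 at 31.9 CPM (1400). These are sums over barcodes, and the median granule-rich barcode had 2 of the 10 genes (0 to 7). S100a8 and S100a9 together ranged from 0 to 28065 UMIs, with a median of 3.

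The mixture of the 2 neighbouring genes is given by source as a description. Granule-rich barcodes were chosen for holding several members, and such barcodes are left out of the hepatocytes, so the choice itself raises the Elane share of the first and lowers that of the second. Elane made up 35.7% of the Prtn3 and Elane UMIs of granule-rich barcodes at P14, 29.6% at 24 h, 21.7% at 48 h and 26.9% at 96 h. The control's single granule-rich barcode had 24 Elane beside 96 Prtn3 UMIs. In hepatocytes Elane made up 0.413% at 48 h (exact interval 0.249 to 0.644), 1.202% at 24 h, 0.887% at 96 h and 0 of 50 in the control. In free RNA after surgery it made up 0.317% at 48 h (0.164 to 0.553), 1.37% at 24 h and 0.675% at 96 h, with intervals that overlap those of hepatocytes. P14 stood apart, with 10.4% in hepatocytes (6.68 to 15.1) and 22.1% in free RNA (16.5 to 28.5). Barcodes that are granule-rich or pass the neutrophil rule are left out of the hepatocytes here. These shares compare sources for 1 pair of genes and are not relative levels of the 2 genes. Barcodes of 100 UMIs or fewer had 5.20% at 48 h, between the hepatocytes and the granule-rich barcodes.

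**Figure D4:**
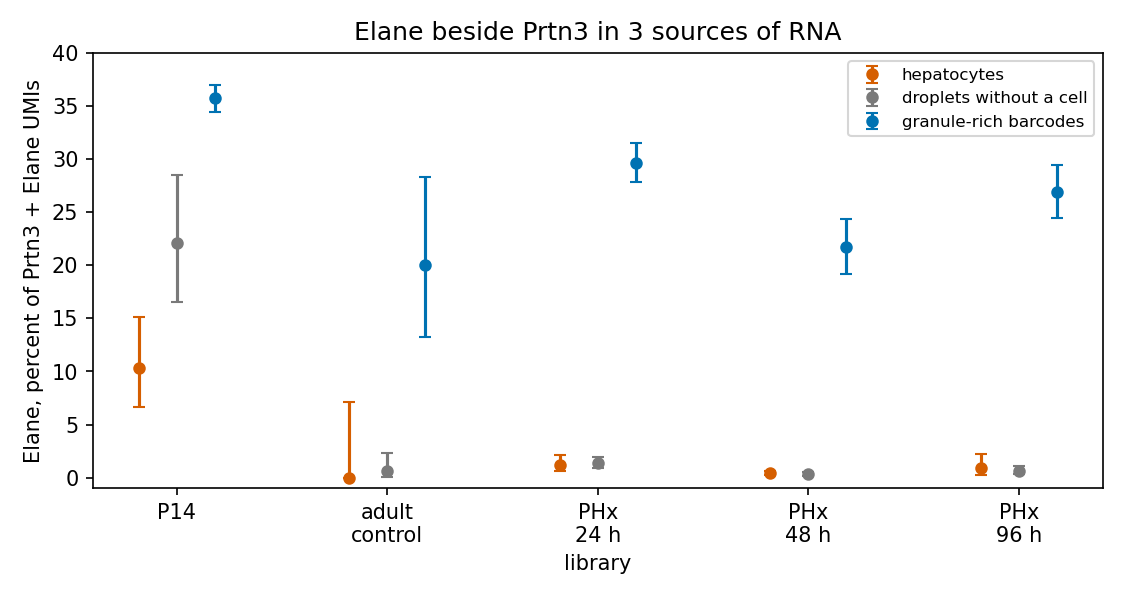
Elane as a percent of Prtn3 plus Elane UMIs in hepatocytes, droplets without a cell and granule-rich barcodes, by library, with 95% exact binomial intervals. After surgery hepatocytes and droplets without a cell lie under 2%, and granule-rich barcodes between 21.7 and 29.6%.

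Neutrophils at P14 and 24 h owed most of their granule protease UMIs to a few barcodes. Prtn3 came to 2120 UMIs in the neutrophils at P14, 4 in the control, 867 at 24 h, 125 at 48 h and 9 in the 96 h library. At P14 all 2120 lay in 3 of 58 cells, with 1412, 691 and 17 UMIs, and at 24 h 464, 189 and 128 lay in 3 granule-rich cells. Without granule-rich barcodes and those that pass the hepatocyte rule, the counts were 0, 4, 84, 109 and 9. The level was then 75.9 CPM at 24 h (60.5 to 94.0), 57.6 CPM at 48 h (47.3 to 69.5) and 27.0 CPM at 96 h (12.3 to 51.2).

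Of these remaining neutrophils, 27.4% had a Prtn3 UMI at 48 h (46 of 168, median depth 9148 UMIs), and 19.0% at 24 h. Thinned to 5000 UMIs the shares were 16.3% of 147 neutrophils at 48 h, above the 9.73% of T or NK cells with overlapping intervals, and 16.3% of 92 at 24 h. At 48 h the level of 57.6 CPM in neutrophils was below the 220.2 CPM of hepatocytes. At 24 h, where 1 cell held 28 of the 84 neutrophil UMIs, no order is read from the 75.9 CPM of neutrophils and the 46.4 CPM of hepatocytes. For every 100 S100a8 and S100a9 UMIs, neutrophils at 48 h held 0.0163 Prtn3 UMIs, free RNA 23.5 and hepatocytes 132. Elane, Mpo and Ctsg came to 4, 1 and 4 UMIs in the remaining 48 h neutrophils, and to 0, 0 and 0 at 96 h.

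The 12 neutrophils with at least 2 members were compared with the 424 that had none, over 5473 genes. Besides the members, whose difference follows from the split, the highest ratios belonged to F13a1, the coagulation factor XIII A chain (436 against 0.338 CPM), Ms4a6c (335 against 1.01) and Ms4a3 (696 against 4.06). Vcan, a proteoglycan of monocytes, was at 156 against 1.01 CPM, Ms4a4c at 100.4 against 0.338 and S100a4 at 372 against 4.40. The 12 cells were deeper, with medians of 52771, 39947 and 25586 UMIs at P14, 24 h and 48 h against 6993.5, 5123 and 8410 for those without members.

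Prtn3 was higher in hepatocytes whose zone genes leaned to the central vein in 4 libraries, and in the control less firmly. Hepatocytes were ranked by the balance of 9 periportal to 9 pericentral genes and cut into terciles of equal size. At 48 h Prtn3 was at 278 CPM in the pericentral tercile, 228 CPM in the middle and 154 CPM in the periportal tercile, a ratio of 1.80 (1.67 to 1.95) between the ends. The ratio was 2.26 at 24 h (1.90 to 2.71), 2.80 at 96 h (2.13 to 3.71), 2.19 at P14 (1.47 to 3.30) and 2.54 in the control (1.142 to 6.22). The pericentral and periportal median depths were 34239.5 and 36730 UMIs at 48 h and 17601 and 19926 at 24 h. At 96 h they were 26163 and 19292.5, and there Prtn3 was also at 38.6 CPM in the deepest tercile of hepatocytes against 26.7 in the shallowest. The part of depth in the 96 h ratio was not tested. Without Cyp2e1 and Cyp2f2, cytochrome P450 genes of the pericentral and periportal zone, the control ratio was 1.69 with an interval of 0.770 to 3.89, and with hepatocytes of 10000 UMIs or more it was 2.30 with an interval of 0.972 to 6.05. Both intervals include 1.

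**Figure D5:**
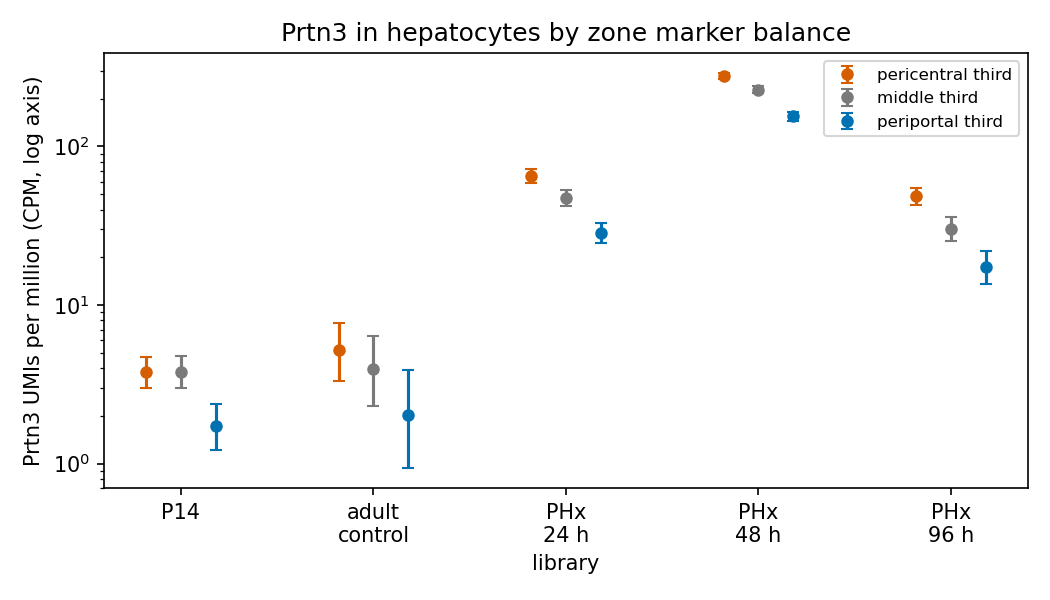
Prtn3 level (CPM, log axis) in hepatocytes cut into terciles by the balance of periportal to pericentral genes, by library, with 95% exact Poisson intervals. The pericentral tercile lies above the periportal one in each library, 278 against 154 CPM at 48 h.

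Other splits of the 48 h hepatocytes differed less between their ends. Hepatocytes at 48 h with at least 3 mitosis genes were at 228 CPM and those with none at 224 CPM. At 24 h the same values were 52.9 and 39.8 CPM, and at 96 h 33.6 and 31.3. Cells with at least 3 mitosis genes were deeper, with medians of 25218 against 16547 UMIs at 24 h and 28598 against 19629.5 at 96 h. By depth alone, Prtn3 at 24 h was at 50.2 CPM in the deepest tercile and 39.4 in the shallowest. The part of depth was not tested. By the share of acute-phase transcripts, the 48 h terciles were at 215, 212 and 232 CPM from lowest to highest. The order was the other way at 24 h (49.9, 46.6 and 44.0 CPM) and 96 h (39.7, 32.2 and 27.4 CPM). The intervals of the lowest and highest at 96 h, 34.2 to 45.7 and 22.7 to 32.7, do not overlap. Those at 24 h, 44.1 to 56.3 and 39.7 to 48.8, do. At 96 h the lowest and highest terciles also differed in the median log2 balance of periportal to pericentral genes, -0.675 against 2.96. Their median depths were 25020 and 20311.5 UMIs. The part of zone and depth in this split was not tested. By mitochondrial share, the level at 48 h was 245 CPM between 10 and 15% (11 cells), 275 CPM between 15 and 20%, 229 CPM between 20 and 25% and 167 CPM between 25 and 30%. The median log2 balance of periportal to pericentral genes was -0.686 between 15 and 20% and 0.114 between 25 and 30%. Median depths there were 59678 and 26326 UMIs. Zone, mitochondrial share and depth were not separated. At the borders of the hepatocyte rule the 48 h level was 154 CPM just inside the 30% limit (28 to 30%, 125 cells) and 149 CPM just outside (30 to 32%, 79 cells). It was 109 and 126 CPM just above and below 5000 UMIs (7 cells each).

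Genes whose hepatocyte levels over the 5 libraries were most like those of Prtn3 were found by the root mean square difference of centred log2(CPM + 1) values among 6055 genes of at least 20 CPM in 1 library. The nearest were Tubb6, a beta-tubulin (distance 0.98; 3.75 CPM in the control, 38.7 at 24 h, 105 at 48 h and 21.4 in the 96 h library), and Esco2, an acetyltransferase that secures sister chromatid cohesion (1.02). Gstm2, a glutathione S-transferase, came next (1.04; 26.7, 252, 180 and 76.6 CPM), followed by Ndrg1, the mitotic kinase gene Nek2, the glutathione S-transferase gene Gsta1, Gas6, Iqgap3, the cochaperone gene Dnajc12 and the mitotic kinase gene Pbk (1.138). Over 5 libraries many genes are alike: 294 of the 6055 had a correlation over 0.9 with Prtn3. Of the 10, Tubb6, Esco2, Nek2, Iqgap3 and Pbk were higher at P14 than in the control, where Prtn3 was not.

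Over the azurophil, precursor, specific granule and late granule lists together, most genes were under 5 CPM in hepatocytes, though several azurophil genes were not. Of 12 azurophil granule genes, the members included, 5 reached 5 CPM at 24 h, 6 at 48 h and 3 at 96 h; 2, 2 and 1 of these were at least 2-fold higher than the control and none 2-fold lower, where 8.51%, 8.3% and 4.07% of all genes were 2-fold higher and 7.13%, 7.63% and 1.88% lower. Besides Prtn3, the gene 2-fold higher at 24 h and 48 h was Cd63, a granule membrane tetraspanin made by many cell types, at 1.502 CPM in the control, 8.51 at 24 h and 5.33 at 48 h. From its control level, reaching 5 CPM already meant 2-fold, so the call of Cd63 followed from the filter. Without Prtn3, which was chosen for its difference, the median log2 differences of the 4, 5 and 2 genes left were 0.15, 0.63 and 0.10, against -0.00, -0.08 and 0.04 over all genes. With Prtn3 they were 0.34, 0.79 and 0.48. Lyz2 and Cd63 passed 5 CPM only after surgery, at 24 h and 48 h, as did Srgn at 48 h (3.15 CPM in the control and 5.42 at 48 h). The medians at 24 h and 48 h thus owe much to the filter. Ctsc, the dipeptidyl peptidase that activates the serine proteases by trimming their ends, was at 62.0 CPM in the control, 39.6 at 24 h, 34.3 at 48 h, 86.8 in the 96 h library and 5.64 at P14. Lyz2, the lysozyme of myeloid cells, was at 4.66, 6.15, 9.94, 2.60 and 4.20 CPM in that order. At P14 1 of 3 measured genes was 2-fold higher (Cd63, 108 CPM) and 2 were lower, beside 7.89% and 13.8% of all genes.

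Of 10 precursor genes 2 reached 5 CPM, Igfbp4 and Cebpe. Neither was 2-fold higher after surgery, and Cebpe was 2-fold lower at 48 h (3.74 CPM against 10.3 in the control). Below that limit, Ptprn2 had 3 hepatocyte UMIs in the control, 56 at 24 h and 38 at 48 h (0.225, 2.87 and 1.82 CPM), a gene named after its values were seen. Ptprn2 had 0 UMIs in neutrophils and 0 in granule-rich barcodes over all libraries, so it did not mark precursors here. Ms4a3 had 0, 0, 1 and 0 hepatocyte UMIs in the control, 24 h, 48 h and 96 h libraries. Of 12 late granule genes only Retnlg reached 5 CPM, at 10.2 CPM at 24 h and 17.7 at 48 h, beside 0.976 in the control, and in free RNA it was at 37.6 and 138 CPM at 24 h and 48 h. Of 10 specific granule genes, 1 at 24 h and 2 at 48 h reached 5 CPM, and all of these were 2-fold higher, as was Retnlg, beside 8.51% and 8.3% of all genes. Ngp, at 0.451 CPM in the control, and Retnlg passed that limit only after surgery. From their control levels, reaching 5 CPM already meant 2-fold, so their calls followed from the filter and that of Lcn2 did not. Over all genes 7.13% and 7.63% were 2-fold lower at 24 h and 48 h. Lcn2, an iron-scavenging lipocalin that hepatocytes also make in the acute phase, was at 72.3 CPM in the control, 4874 at 24 h, 3307 at 48 h and 229 in the 96 h library. Ngp, a granule protein of neutrophils, reached 5.28 CPM at 48 h.

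Of 10 genes around Prtn3 and Elane on chromosome 10, 3 reached 5 CPM. None of these 3 was 2-fold higher or lower than the control after surgery, beside 8.51%, 8.3% and 4.07% of all genes higher and 7.13%, 7.63% and 1.88% lower at 24 h, 48 h and 96 h. Palm, below that limit, had 2 UMIs in the control and 17 at 48 h (0.150 and 0.816 CPM). Ptbp1, a splicing regulator 9.705 kb away, was at 67.1 CPM in the control and 77.8 at 48 h, R3hdm4 at 54.8 and 39.0, and Med16, a Mediator subunit, at 9.24 and 10.6. Plppr3 lies on the other strand and overlaps an alternative first exon of Prtn3 by 159 bases. It was at 0.048 CPM at 48 h. Of 12 granzyme and mast cell protease genes near Ctsg, none reached 5 CPM.

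Factors that drive granule genes in myeloid cells were higher or lower by gene in hepatocytes. Cebpa, which sets both hepatocyte and granulocyte identity, was at 352 CPM in the control, 72.5 at 24 h, 81.2 at 48 h and 263 in the 96 h library. Cebpb, its relative in the acute-phase and emergency granulopoiesis programmes, was at 298, 628, 487 and 250 CPM, and Cebpd at 7.88, 27.6, 22.6 and 3.20. Spi1, which encodes the ETS factor PU.1, stayed at or under 0.601 CPM in hepatocytes of each library, against 702 CPM in neutrophils. Of the 10 factors 6 were measured, of which 2 at 24 h, 1 at 48 h and 0 at 96 h were 2-fold higher and 1, 2 and 1 lower, beside 8.51%, 8.3% and 4.07% of all genes higher and 7.13%, 7.63% and 1.88% lower.

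Inhibitors of the proteases ranged in control hepatocytes from 0.150 CPM of A2m, alpha-2-macroglobulin, to 13135 CPM of Serpina1e. Serpina3m, a relative of antichymotrypsin named after its values were seen, was at 43.6 CPM in the control, 550 at 24 h, 345 at 48 h and 191 in the 96 h library. Of 13 inhibitor genes, 11 were measured at 24 h, 10 at 48 h and 9 at 96 h, with 4, 2 and 1 at least 2-fold higher and 1, 1 and 0 lower; over all genes 8.51%, 8.3% and 4.07% were higher and 7.13%, 7.63% and 1.88% lower. The list's median differences were 0.14, 0.03 and -0.22, against -0.00, -0.08 and 0.04 over all genes. The alpha-1-antitrypsin genes Serpina1a to Serpina1e are near-identical copies whose counts are uncertain one by one: Serpina1a was at 3980 CPM in the control, 2736 at 24 h, 4169 at 48 h and 4573 in the 96 h library, and Serpina1e at 13135, 6051, 9797 and 10977. Slpi, the secretory leukocyte protease inhibitor, which neutrophils hold at 2231 CPM, was at 0.300 CPM in control hepatocytes, 27.98 at 24 h, 12.1 at 48 h and 1.86 at 96 h. Slpi at 24 h and 48 h, and A2m at 24 h (9.33 CPM), passed 5 CPM only after surgery. From their control levels, reaching 5 CPM already meant 2-fold, so these calls followed from the filter.

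Acute-phase genes, the liver's response to inflammation, were higher at 24 h and 48 h. Of 14, 11 were at least 2-fold higher at 24 h, 13 at 48 h and 2 at 96 h, where 2 were 2-fold lower. Over all genes 8.51%, 8.3% and 4.07% were 2-fold higher, and 1.88% lower at 96 h. The list's median differences were 1.98, 2.51 and -0.01, against -0.00, -0.08 and 0.04 over all genes. Saa2, a serum amyloid gene nearly identical to Saa1, was at 1365 CPM in the control, 20968 at 24 h, 31492 at 48 h and 856 in the 96 h library. At 96 h, where the list's median was at the control's level, Prtn3 was 8.86-fold above the control. Of 22 mitosis genes, all 20, 22 and 19 that were measured at 24 h, 48 h and 96 h were 2-fold higher. At P14 21 of 21 measured were, beside 7.89% of all genes. All 22 were at 3.60 CPM or less in the control, so each passed 5 CPM only through the compared library. These counts thus owe much to the filter. Without it, the lowest log2 difference among the 22 was 1.36 at 24 h, 3.07 at 48 h, 1.02 at 96 h and 1.79 at P14. Prtn3 was at the control's level at P14.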

How the data were processed

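The authors deposited, for each library, a matrix of raw UMI counts per gene and barcode, with empty droplets included. Per the submitters' processing notes, bcl2fastq 2.17.1.14, Cell Ranger, Seurat 3.1 and mm10 were used, with no role given, and the counting of strand is not given in the sources used here. Total counts per library ranged from 80927744 to 136110607 UMIs. The barcode and gene lists that the authors deposited hold no measurement.

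Counts were summed over the hepatocytes or neutrophils of a library and set per 1000000 of all genes but 13 mitochondrial ones. With 1 library per group no test was made, and neither a p-value nor a standard error is given. Differences are log2(CPM + 1), folds carry exact conditional 95% intervals from the raw counts, and genes that reach 5 CPM in the control or the compared library form the background. Free RNA was read from the 40000 barcodes that follow the 20000 deepest. Cell classes other than hepatocytes and neutrophils needed 3 markers of their own and at most 1 of any other class. The ratios and the likeness measure were tested on simulated data. Python 3.11.15 with numpy 2.4.6, scipy 1.17.1 and pandas 2.3.3 was used, and edgeR 4.0.16 for TMM factors only. Coordinates come from GENCODE M21 and RefSeq on GRCm38, the assembly that mm10 names.

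The members, the gene lists and the cell rules were chosen with earlier results of these data known. The genes named are the members, up to 6 of each list with most UMIs in hepatocytes or neutrophils, the 10 most like Prtn3 and the 10 of highest ratio in neutrophils with members. Plppr3 was added for its overlap, and Stfa2l1 and Cyp2e1 and Cyp2f2 as parts of a marker list. Ptprn2, Palm, Selplg, A2m and Serpina3m were named after their values were seen.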

Additional observations from a re-analysis of the deposited data

How the results depend on the processing

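No paired analysis was possible because each group has 1 library. Most alternatives were planned; free RNA scaled by Alb, the sets without granule-rich barcodes and the alternatives for liver zones were chosen after seeing the data. Of 482 values under alternatives, 380 were counted as unmoved and 97 as moved beyond their counting interval. The other 5, all of Prtn3 over free RNA scaled by Alb, were counted as reversed. Elane and Ctsg had 0 UMIs in control hepatocytes, so their differences from the control had no finite interval. Those values could not count as moved, and they raise the count of unmoved ones. Shares of genes at least 4-fold higher have no counting interval and were judged by a fixed ratio. No value of Elane, Mpo or Ctsg was counted so. Yet scaling by Alb also took these genes at P14 from above free RNA to below it. Differences near 0, such as that of Prtn3 at P14, also changed sign without being counted as reversed. The causes were not tested.

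Prtn3 in hepatocytes over the control stayed higher in all 3 libraries after surgery under every alternative tried, while at P14 the difference lay between -0.46 and 0.32. A pseudocount of 10 gave 2.04 at 24 h, 4.06 at 48 h and 1.65 at 96 h. A marker share of 5% gave 2.29 at 24 h, 10 to 20% mitochondrial UMIs 5.99 at 48 h and 3.30 at 96 h, and 0 to 30% gave 3.35 at 96 h.

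Hepatocytes over free RNA stood at 4.73, 2.80, 3.66, 6.08 and 3.49 (log2 of UMIs per barcode) at P14, in the control and at 24 h, 48 h and 96 h. Free RNA from the ranks after 60000, up to 100000, gave 5.74, 4.81, 4.85, 7.37 and 5.03, and from barcodes of 100 UMIs or fewer 10.27, 12.37, 12.30, 13.98 and 12.17. Scaled by S100a8 and S100a9 it gave 1.02, 0.12, 1.80, 2.46 and 0.54. Scaled by Alb, which hepatocytes make themselves, the sign changed: -2.41, -1.10, -2.42, -2.18 and -2.47. At 24 h, 10000 UMIs or more gave 3.82, 10 to 20% mitochondrial UMIs 4.37, 0 to 30% 3.77, a marker share of 5% 3.03, and leaving out the deepest 5% 3.51. At 48 h the value was 7.02 with 10 to 20%, 6.21 with a marker share of 5%, 5.92 without cells of 5 S100a8 and S100a9 UMIs, 5.97 without cells of 3 other markers and 5.92 without the deepest 5%. At 96 h it was 4.11 with 10 to 20% and 3.80 with 0 to 30%.

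The members' summed level in neutrophils depended on few barcodes. At P14 (6748 CPM) it was 7338 with 100 UMIs of S100a8 and S100a9, 5207 with 3 of 6 genes, 8183 under 10% mitochondrial UMIs or without hepatocyte barcodes, 2.43 without granule-rich barcodes and 1373 thinned to 1000 UMIs. At 24 h (1486 CPM) it was 1574, 1564, 77.7 without granule-rich barcodes and 388 thinned, and at 48 h (70.5 CPM) 58.4 with 3 of 6 genes and 41.7 thinned. Thinned to 5000 UMIs, the shares of hepatocytes with a Prtn3 UMI were 1.42, 1.08, 15.6, 53.5 and 10.5%. Neutrophils were thinned to 1000 UMIs, so their shares of 3.45, 2.04, 5.95, 3.53 and 2.50% are not to be set beside these. The log2 ratio of pericentral to periportal hepatocytes at 48 h was 0.59 with 10 to 20% mitochondrial UMIs, against 0.85. In the control that alternative left 87 cells and gave no value.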
